A study of Mus musculus with 9 samples.

Results

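The genes described here are 10 interferon-induced antiviral genes of the rat, the Mx GTPases *Mx1* and *Mx2*, the OAS family members *Oas1a*, *Oas1b*, *Oas2* and *Oasl*, the ubiquitin-like modifier *Isg15* and its protease *Usp18*, and the antiviral proteins *Rtp4* and *Bst2*. They were chosen by symbol for their function, but with earlier results of these data known. They are 10 of the 15122 genes listed under a usable symbol, and all 10 were present in each of the 3 tables. RNA sequencing was performed on neonatal rat ventricular myocytes (NRVMs), primary heart muscle cells from Sprague Dawley pups 1 or 2 days old, which were infected with adenoviruses for LacZ, Nrf1 or Nrf2 at an MOI (viral particles able to infect, per cell) of 50. There were 3 libraries per group and 9 in all. Nrf1 and Nrf2 are related transcription factors that activate stress response genes, and LacZ, the bacterial β-galactosidase, served as the control for infection. The viruses carried the mouse coding regions of Nrf1 or Nrf2, or lacZ, in a vector with a CMV promoter, which is active in most cell types, and a red fluorescent protein. The cells were kept for 48 h before infection and collected 48 h after it. All 3 groups received virus and no uninfected cells are among the samples, so the level of these genes without virus is not given by these data. Each group received its own virus and the extent of infection in each library was not analysed. A difference due to the factor and one due to its virus stock therefore cannot be told apart. The labels give the organism as mouse, but the strain, the cell type and the genome build used for alignment, Rnor_6.0, are those of the rat.

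Cells respond to viral nucleic acid by secreting type I interferon, which binds its receptor on the same and neighboring cells. The kinases Jak1 and Tyk2 then activate a transcription factor complex, which switches on interferon-stimulated genes through a shared promoter element. Mx proteins trap viral components, OAS enzymes sense double-stranded RNA and activate the nuclease RNase L, and Isg15 is conjugated to proteins by a dedicated enzyme cascade and removed again by Usp18, which also dampens the interferon receptor. Such genes are kept low in resting cells and can be induced in most cell types of the heart.

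The libraries held between 7874461 and 11905658 reads assigned to genes. The reads of single libraries were solved from the group means of the tables, so the libraries of a group are called a, b and c in order of their size factor, from the largest, and carry no replicate number. Nothing in the labels says whether the 3 libraries of a group came from separate cell isolations, so p-values measure the spread between these libraries, which may be technical. *Nfe2l2*, the gene for Nrf2, had 6831 to 7986 CPM (reads scaled to a library total of 1000000) in the Nrf2 libraries and 368 to 374 CPM in the LacZ libraries. The gene for Nrf1 was not analysed here, but its known targets *Psmb3* and *Psmd1*, proteasome subunits, rose with Nrf1 by 1.79 ± 0.066 and 1.34 ± 0.033 (log2, SE; limma adjusted p = 1.77e-12 and 1.50e-14). Both were also above LacZ with Nrf2. *Psmb3* had 102, 335 and 152 CPM with LacZ, Nrf1 and Nrf2, and *Psmd1* had 413, 1002 and 589. Of 10 genes checked, *Nfe2l2* and targets of either factor, 6 were called higher with Nrf1 and 9 with Nrf2, by the criteria given below. The heart muscle marker *Tnnt2* was present in all 9 libraries, at 25734 to 46812 reads.

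All 10 antiviral genes were lower with Nrf1 than with LacZ, by 9.10-fold (*Oasl*) to 34.8-fold (*Mx2*), with a median log2 ratio of the group means of -4.18. With Nrf2 all 10 were also lower than with LacZ, by 2.42-fold (*Oasl*) to 4.97-fold (*Mx2*), with a median of -1.82. Over all genes with reads in both groups the median log2 ratio was -0.03 with Nrf1 and -0.01 with Nrf2. Every one of the 10 genes passed the test in both comparisons, which was limma across all genes with a Benjamini-Hochberg adjusted p below 0.05 and a change in the means of more than 1.5-fold. The same call was made for 14.9% of all genes with Nrf1 (2205 of 14791 lower) and for 8.06% with Nrf2 (1205 of 14958 lower). By the ratio of means alone, 24.3% of all genes were more than 1.5-fold lower with Nrf1 and 15.5% with Nrf2. Past 4-fold, 10 of the 10 were lower with Nrf1, where the share over all genes was 6.31%, and 3 of the 10 (*Mx2*, *Oas2* and *Oas1a*) with Nrf2, where it was 3.3%. In both comparisons the libraries of the groups did not overlap for any of the 10 genes, which held for 29.3% of all genes with Nrf1 and 24.9% with Nrf2 in the same direction. These comparisons share the LacZ libraries and are given side by side. Because the RNA came from whole cultures, fewer cells making a transcript and less of it per cell cannot be told apart.

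**Figure D1:**
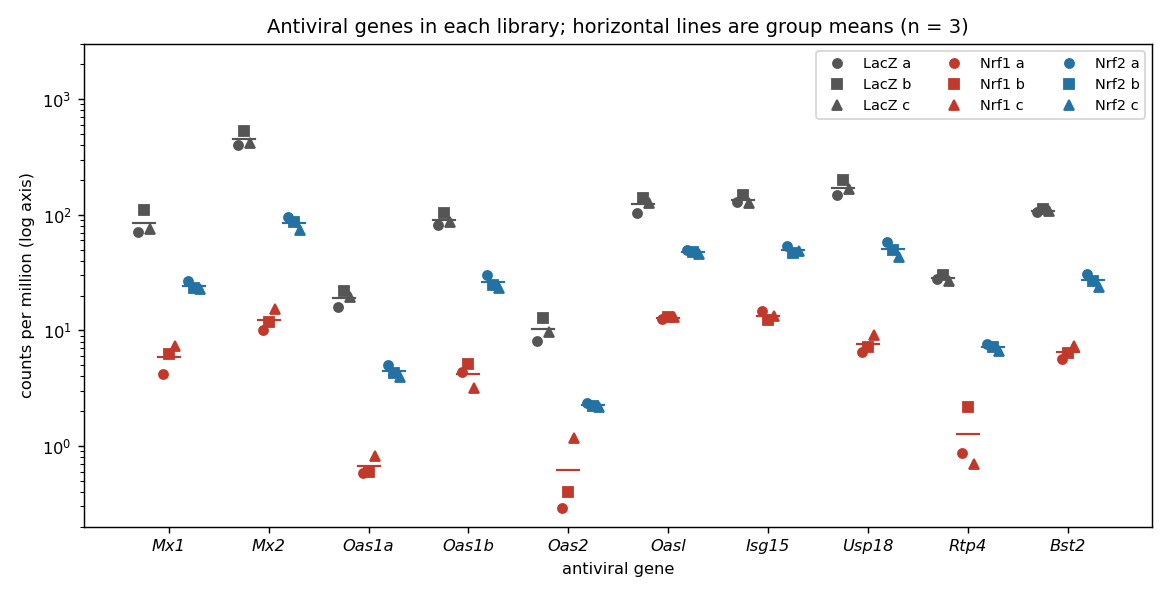
Level of each antiviral gene in CPM (log axis) in the 9 libraries, with LacZ in grey, Nrf1 in red and Nrf2 in blue. Points are single libraries and short lines are the means of 3. For every gene the Nrf1 libraries lie lowest, the Nrf2 libraries between, and the LacZ libraries highest, with no overlap; *Mx2* goes from 449 CPM with LacZ to 85.2 with Nrf2 and 12.3 with Nrf1.

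The Mx GTPases are dynamin-like proteins that assemble around viral particles and block their replication. *Mx2* took the most reads of the 10 genes in the LacZ libraries, 3746, 4365 and 3277, against 103, 118 and 130 in the Nrf1 libraries and 1148, 969 and 746 in the Nrf2 libraries. Its level was 449 ± 71.3 CPM with LacZ, 12.3 ± 2.65 with Nrf1 and 85.2 ± 11.5 with Nrf2 (SD, n = 3). The LacZ and Nrf1 groups were thus separated by many times the spread within either of them. The limma log2 fold change of *Mx2* was -5.12 ± 0.12 with Nrf1 (SE, adjusted p = 8.51e-15), and the fold change with Nrf2 was -2.31 ± 0.095 (adjusted p = 8.53e-11). Genes were ranked by their fall where either group's mean reached 100. *Mx2* ranked 1 of 8545 such genes with Nrf1 and 2 of 8653 with Nrf2. *Mx1* had 71.1, 110.5 and 75.4 CPM in the LacZ libraries, 4.18, 6.29 and 7.27 with Nrf1, and 26.8, 23.1 and 22.7 with Nrf2. LacZ library b stood above the other LacZ libraries for this gene, by up to 1.55 times. *Mx1* fell by 3.78 on the log2 scale with Nrf1 (SE 0.17, limma adjusted p = 2.38e-11) and by 1.71 with Nrf2 (SE 0.12, adjusted p = 4.04e-08). *Mx1* and *Mx2* are close relatives, as are *Oas1a* and *Oas1b*, and how reads shared by such copies were assigned is not stated, so the split between the members of each pair is uncertain.

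The OAS proteins that are active enzymes make a short RNA-like messenger, 2′-5′-linked oligoadenylate, when they bind double-stranded RNA. This messenger turns on RNase L. *Oas1b* had 80.9, 102.7 and 86.9 CPM in the LacZ libraries, 4.38, 5.09 and 3.16 with Nrf1, and 30.1, 24.7 and 23.3 with Nrf2. *Oas1a*, a close copy of it, went from 15.9, 21.9 and 19.4 CPM with LacZ to 0.584, 0.599 and 0.820 with Nrf1 and 5.04, 4.25 and 3.94 with Nrf2. The Nrf1 values of *Oas1a* rest on 6, 6 and 7 reads. *Oas1b* fell by 4.34 (SE 0.14) with Nrf1 and by 1.71 (SE 0.094) with Nrf2 on the log2 scale, with limma adjusted p of 3.76e-13 and 2.27e-09. For *Oas1a* the limma fold changes were -4.57 ± 0.22 with Nrf1 (adjusted p = 5.61e-11), against -2.0 ± 0.15 with Nrf2 (adjusted p = 6.67e-08). *Oas2* was the gene with the fewest reads, 76, 105 and 76 with LacZ, 3, 4 and 10 with Nrf1, and 28, 25 and 22 with Nrf2. Its Nrf1 libraries differed among themselves by 4.01 times in CPM, and without Nrf1 library c, which held 10 reads, its log2 ratio of means moved from -3.97 to -4.81. The limma fold change of *Oas2* was -3.92 ± 0.37 with Nrf1 (adjusted p = 1.45e-07), against -2.02 ± 0.20 with Nrf2 (adjusted p = 1.08e-06). *Oasl*, an OAS-like protein with a ubiquitin-like tail, had 103.3, 139.5 and 126.2 CPM with LacZ, 12.5, 13.2 and 13.1 with Nrf1, and 49.3, 47.9 and 46.2 with Nrf2. Its fall was the smallest of the 10 in both comparisons, -3.17 ± 0.086 with Nrf1 (limma adjusted p = 5.65e-14) and -1.27 ± 0.080 with Nrf2 (adjusted p = 9.89e-09), although the next smallest, that of *Isg15*, lay within about 1 SE of it.

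Isg15 is attached to newly made proteins during the antiviral response, and Usp18 is the protease that takes it off. *Isg15* had 128.6, 148.9 and 126.6 CPM in the LacZ libraries, 14.7, 12.3 and 13.2 with Nrf1, and 53.8, 47.0 and 48.5 with Nrf2. *Usp18* had 148.6, 197.9 and 168.6 CPM with LacZ, 6.52, 7.18 and 9.14 with Nrf1, and 57.9, 49.7 and 43.3 with Nrf2. Neither gene had a Nrf1 or Nrf2 library that reached a LacZ library. The fall of *Usp18* with Nrf1 was 21.6-fold and that of *Isg15* 9.61-fold. On the limma scale these were -4.42 ± 0.11 (adjusted p = 1.86e-14) and -3.26 ± 0.077 (adjusted p = 8.64e-15). With Nrf2 they were closer together, at -1.68 ± 0.097 for *Usp18* (limma adjusted p = 3.83e-09) and -1.35 ± 0.065 for *Isg15* (adjusted p = 5.19e-10). Whether the 2 genes differed from each other was not tested.

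Bst2, also called tetherin, holds budding viruses at the cell surface, and Rtp4 is an interferon-induced protein that restricts some RNA viruses. *Bst2* was the steadiest of the 10 genes across the LacZ libraries, with 106.1, 113.2 and 107.1 CPM, against 5.64, 6.39 and 7.38 with Nrf1 and 30.7, 26.9 and 23.6 with Nrf2. *Rtp4* had 27.6, 30.3 and 26.9 CPM with LacZ, 0.876, 2.20 and 0.703 with Nrf1, and 7.64, 7.16 and 6.60 with Nrf2. The Nrf1 values of *Rtp4* rest on 9, 22 and 6 reads, and library b stood above the other Nrf1 libraries. The limma log2 fold change with Nrf1 was -3.99 ± 0.092 for *Bst2* and -4.47 ± 0.29 for *Rtp4*, with adjusted p of 8.53e-15 and 1.61e-09. Without Nrf1 library b the log2 ratio of means of *Rtp4* was -5.10 in place of -4.42. With Nrf2 the fold changes were -1.92 ± 0.077 for *Bst2* and -1.89 ± 0.10 for *Rtp4*, with limma adjusted p of 7.06e-11 and 2.40e-09.

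The direct comparison of Nrf2 with Nrf1, which asks whether these genes were at different levels in the 2 groups, used a table normalized on those 6 libraries alone. All 10 genes were higher with Nrf2, by 3.65-fold (*Oas2*) to 6.97-fold (*Mx2*), with a median log2 ratio of 2.30 against 0.01 over all genes. Each of the 10 was called higher by limma, a call made for 10.7% of all genes (1594 of 14880), and the libraries overlapped for none of the 10, which held for 26.9% of all genes. More than 1.5-fold higher means were found for 20.1% of all genes. In 7 of the 10 the difference was more than 4-fold, against 6.59% of all genes. *Oas1a*, *Usp18* and *Oas1b* followed *Mx2*, at 6.67-fold, 6.67-fold and 6.23-fold, while *Oasl* and *Isg15* differed by 3.74-fold and 3.75-fold. The limma log2 fold changes ranged from 1.89 ± 0.070 (*Oasl*, SE, adjusted p = 1.85e-12) to 2.80 ± 0.12 (*Mx2*, adjusted p = 1.15e-11). *Oas2* had the weakest call, 1.91 ± 0.39 (limma adjusted p = 6.06e-04), and it was lost when any 1 of the Nrf2 libraries was left out (adjusted p of 0.053, 0.053 and 0.055 without a, b and c).

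**Figure D2:**
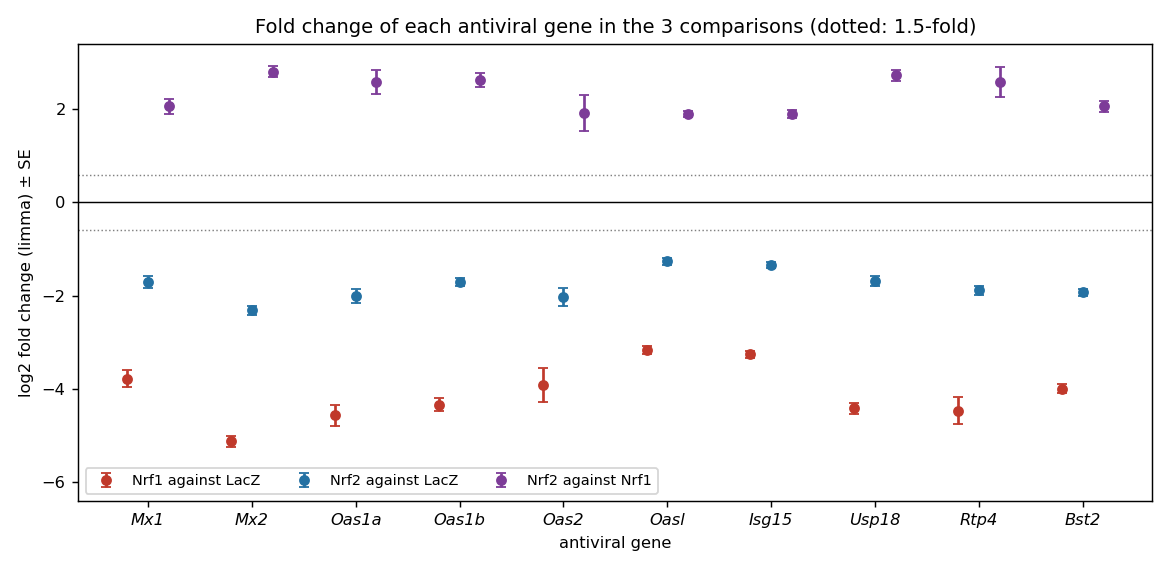
Limma log2 fold change of each antiviral gene (points, with SE as bars) for Nrf1 against LacZ in red, Nrf2 against LacZ in blue and Nrf2 against Nrf1 in purple, with dotted lines at 1.5-fold. Nrf1 against LacZ lies from -3.17 (*Oasl*) to -5.12 (*Mx2*), Nrf2 against LacZ from -1.27 to -2.31, and Nrf2 against Nrf1 from 1.89 to 2.80.

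Summed over the 10 genes, the level was 1221 ± 167 CPM with LacZ, 65.4 ± 5.80 with Nrf1 and 324 ± 33.5 with Nrf2 (SD, n = 3). This is 18.7-fold lower with Nrf1 and 3.77-fold lower with Nrf2. The 10 genes took 0.109 to 0.141% of all reads in the LacZ libraries, 0.00597 to 0.00713% in the Nrf1 libraries and 0.0294 to 0.0360% in the Nrf2 libraries. The antiviral genes also varied together within groups. LacZ library b was the highest of the LacZ libraries for all 10 genes and Nrf2 library a the highest of the Nrf2 libraries for all 10, whereas over the 8412 genes with at least 100 reads on average these libraries were the highest for 40.1% and 32.7%. The same libraries were the highest for 30 and 24 of the 33 other interferon-induced genes with at least 100 reads, for 4 and 4 of the 4 ISG15 partners, and for 7 and 5 of the 7 fibroblast markers with as many reads, so this order was not particular to the 10. In the Nrf1 group the highest values of the 10 were split, with 6 genes in library c, 3 in b and 1 in a. The median coefficient of variation of the 10 genes was 14.6% with LacZ, 20.7% with Nrf1 and 11.1% with Nrf2. For all genes with a mean of 100 to 1000 reads in the group it was 5.80%, 4.91% and 5.02%. Most of the 10 had fewer reads than this with Nrf1, so the values of the 3 groups are not like for like.

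The spread between libraries was above that from counting alone for 9 of the 10 genes with LacZ, 8 with Nrf1 and 6 with Nrf2. The share over all genes was not computed. An SD from 3 libraries can often pass the value from counting with no further spread, so these counts are not read as a trait of the 10. Some passed narrowly, such as *Bst2* with LacZ (3.52%, where counting gives 3.29%). For *Mx1* the spread was 25.2% in the LacZ group, where counting gives 3.72%, and 26.6% in the Nrf1 group, where counting gives 13.4%. For *Oas2* and *Rtp4* with Nrf1 it was 77.3% and 64.9%, where their few reads give 42.0% and 28.5%. For *Oas1a* with Nrf1, 19.8% was below the 39.7% from counting. The same LacZ library b also held the highest summed level of the 8 leukocyte and macrophage markers, 252 CPM against 171 and 183 in libraries a and c. In Nrf2 library a that sum was the lowest of its group, 89.9 CPM against 101.3 and 98.9. The summed level of the fibroblast markers was highest in both of these libraries, at 13846 CPM in LacZ library b against 12974 and 13166, and at 6956 CPM in Nrf2 library a against 6410 and 6681. The part of these cell types in the spread within groups was not tested. Without LacZ library b the summed level of the antiviral genes was 17.2-fold lower with Nrf1 and 3.48-fold lower with Nrf2, and all 10 genes were still called in both comparisons.

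**Figure D3:**
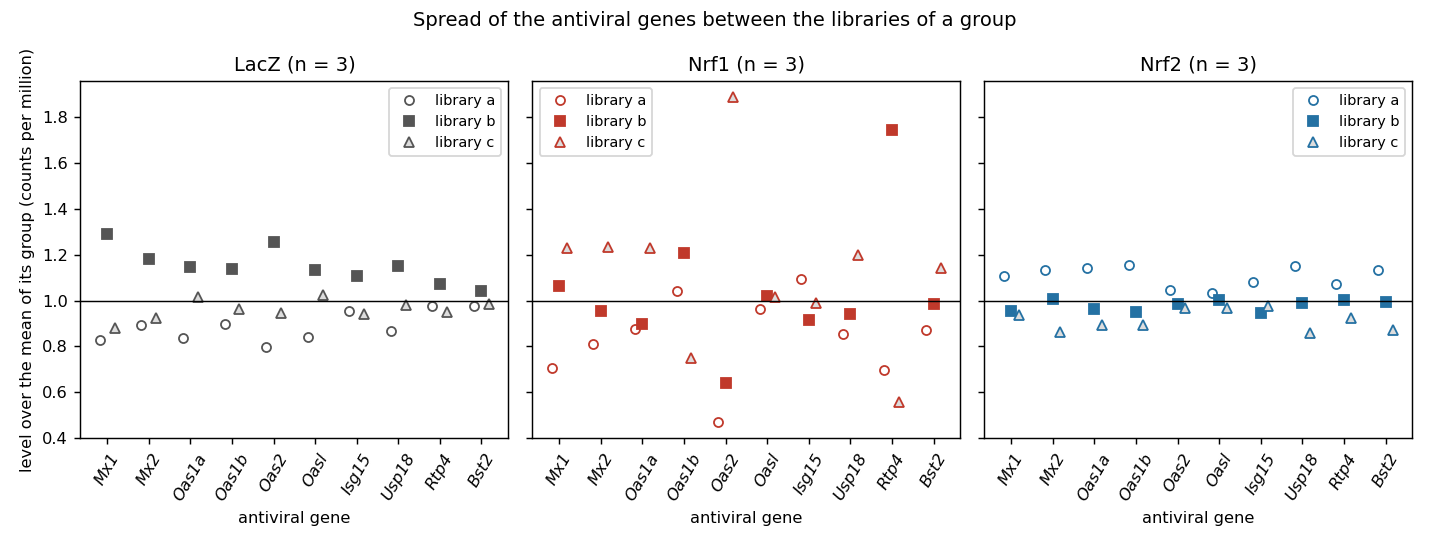
Level of each antiviral gene in each library divided by the mean of its own group (CPM), in 3 panels for LacZ, Nrf1 and Nrf2, with libraries a, b and c as circles, squares and triangles. In the LacZ panel the squares (library b) are highest for all 10 genes and in the Nrf2 panel the circles (library a) are, while the Nrf1 panel has no such order and the widest spread for *Oas2* and *Rtp4*.

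The genes that act before and beside the 10 were then examined, from the interferon ligands onwards. Of 11 interferon genes, 3 were measured and none was called by limma in any comparison. *Ifnb1*, the gene for interferon beta, had 0, 3 and 2 reads in the LacZ libraries, 0, 0 and 0 in the Nrf1 libraries and 0, 3 and 1 in the Nrf2 libraries. *Ifnk* and *Ifng* had at most 1 read in any library. At this depth no difference in ligand transcripts was detectable. Of 14 receptors, kinases and signal transducers measured, 6 were called lower and 0 higher with Nrf1, and 4 lower and 0 higher with Nrf2. *Irf7*, the regulator that amplifies the interferon response and is itself induced by it, had the largest fall, -4.02 ± 0.085 with Nrf1 (limma adjusted p = 6.38e-15) and -2.07 ± 0.078 with Nrf2 (adjusted p = 3.24e-11). Its reads were 3558, 4109 and 3296 with LacZ, 228, 274 and 229 with Nrf1, and 1269, 1061 and 919 with Nrf2. *Stat2* and *Irf9*, which encode subunits of the transcription factor complex, fell too, with limma log2 fold changes for Nrf1 and Nrf2 of -2.23 and -1.07 for *Stat2* and of -2.33 and -1.04 for *Irf9*. The receptor subunit *Ifnar1* did not pass the fold criterion (-0.43 and -0.26), nor did the kinases *Jak1* (0.02 and 0.15) and *Tyk2* (-0.10 and -0.11). The highest ratios in this list were those of *Irf3* with Nrf1 (0.30) and *Jak2* with Nrf2 (0.31), neither of which passed the fold criterion.

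Among 9 nucleic acid sensors and adaptors measured, 6 were called lower and 1 higher with Nrf1, and 6 lower and 0 higher with Nrf2. *Dhx58*, which encodes the RNA sensor Lgp2, fell by 3.59 (SE 0.13, limma adjusted p = 9.33e-13) with Nrf1 and by 1.65 (SE 0.094, adjusted p = 3.36e-09) with Nrf2. The related sensors *Ddx58* (Rig-I) and *Ifih1* (Mda5) fell by 3.10 and 3.00 with Nrf1 and by 1.48 and 1.46 with Nrf2. *Tbk1*, the kinase downstream of these sensors, was the gene called higher with Nrf1 (0.78 ± 0.054, limma adjusted p = 3.69e-09), at 961, 899 and 841 reads against 507, 494 and 448 with LacZ. With Nrf2 its limma fold change was 0.26, below the fold criterion.

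The enzymes that attach Isg15 and the rest of the OAS system gave the following counts. Of 4 conjugation partners measured, 3 were called lower with Nrf1 and 3 with Nrf2, and none higher. *Uba7*, the activating enzyme of the cascade, fell by 2.77 (SE 0.19) with Nrf1 and by 1.53 (SE 0.14) with Nrf2 (limma adjusted p = 3.50e-09 and 4.83e-07), while *Arih1*, a ligase with other substrates as well, had values of 0.53 and 0.25 and was not called. Of 11 other OAS and RNase L pathway genes measured, 8 were called lower with Nrf1, 6 with Nrf2 and none higher. Only 3 of the 11 reached a mean of 100, and of these *Oasl2* alone was called, so the other calls rest on few reads. *Oasl2*, a relative of *Oasl*, fell by 3.07 (SE 0.13, limma adjusted p = 1.06e-11) and 1.68 (SE 0.079, adjusted p = 3.81e-10), from 504, 476 and 468 reads with LacZ to 61, 53 and 71 with Nrf1 and 198, 208 and 156 with Nrf2. Several *Oas1* copies had few reads, and *Oas1d*, *Oas1f*, *Oas1h* and *Oas1i* had 0 in each Nrf1 library, so no fold is given for them. *Pde12*, which degrades the OAS messenger, had the highest ratio of the list, 0.56 with Nrf1 and 0.25 with Nrf2 (log2), and was not called.

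Of 36 other interferon-induced antiviral genes measured, 34 were called lower and 1 higher with Nrf1, and 33 lower and 0 higher with Nrf2. Their median log2 ratios of -2.53 and -1.19 lie nearer to 0 than the medians of -4.18 and -1.82 for the Mx, OAS and ISG15 system genes. Both sets were chosen with earlier results known, so this gap is no test of how particular the 10 are. The sets also overlapped, with log2 ratios of means with Nrf1 of -3.85 for *Rsad2* and -3.19 for *Oasl*. In the direct comparison 25 of the 36 were called higher and 1 lower with Nrf2 than with Nrf1, with a median of 0.95. *Rsad2* (viperin), an enzyme that makes a chain-terminating nucleotide, had the largest fall with Nrf1, -3.84 ± 0.13 (limma adjusted p = 6.67e-13). *Gbp5*, a GTPase that attacks intracellular pathogens, had the largest fall with Nrf2, -2.18 ± 0.10 (limma adjusted p = 4.72e-10). The exception was *Samhd1*, which limits viral DNA synthesis by degrading nucleotides. It was called higher with Nrf1 (0.70 ± 0.11, limma adjusted p = 6.95e-05), with 214, 199 and 186 reads against 107, 130 and 103 with LacZ. It was also the 1 gene called lower with Nrf2 than with Nrf1 (-0.96 ± 0.094, limma adjusted p = 3.04e-07). Of 10 housekeeping genes, none was called with Nrf1 and 2, *Hprt1* and *Ppia*, were called higher with Nrf2. *Hprt1* had 37, 2 and 99 reads in the LacZ libraries and 192, 92 and 112 with Nrf2, so its change is uncertain. *Ppia* had 58.3 ± 16.2 CPM with LacZ and 87.8 ± 24.2 with Nrf2 (SD).

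**Figure D4:**
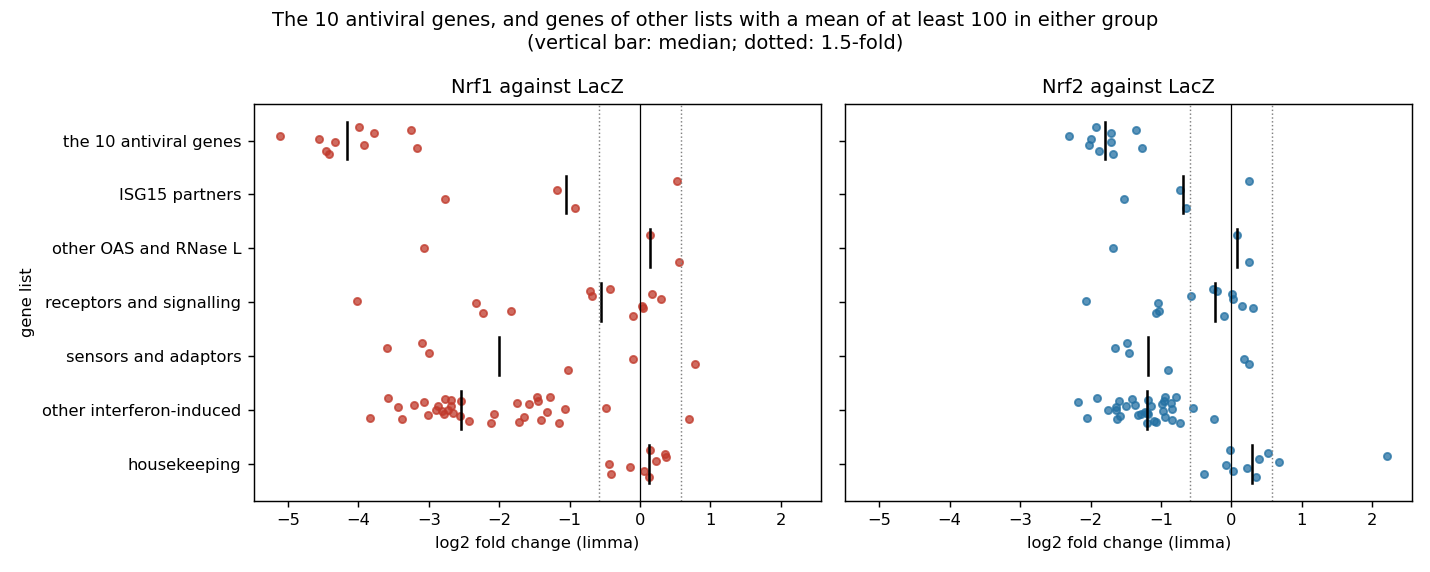
Limma log2 fold change of the 10 antiviral genes and of the genes of 6 other lists that reached a mean of 100 in 1 of the groups compared, for Nrf1 against LacZ (left) and Nrf2 against LacZ (right). Each point is a gene, the vertical bars are medians and the dotted lines mark 1.5-fold. The median of the 10 antiviral genes lies furthest to the left in both panels. The receptors and signalling genes spread from *Irf7* at the left (-4.02 and -2.07) to 0.30 and 0.31 at the right. Most housekeeping genes lie around 0, and *Hprt1* with Nrf2 lies furthest from it (2.21), with LacZ libraries of 37, 2 and 99 reads.

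The genes whose pattern over the 3 comparisons was most like the median of the 10, by the Euclidean distance between the 3 log2 ratios and among 8290 other genes whose LacZ mean reached 100, were *RT1-T24-3* (distance 0.35), *Irf7* (0.46), *Dhx58* (0.65), *Rsad2* (0.67), *Cmpk2* (0.85), *Ifit3* (0.90), *Slfn3* (0.95), *Ifi44* (1.15), *RT1-S3* (1.25) and *Ddx58* (1.32). *RT1-T24-3* and *RT1-S3* belong to the rat major histocompatibility complex, a family of near-identical copies, so their reads are uncertain. *RT1-T24-3* had log2 ratios of -3.91 with Nrf1 and -1.83 with Nrf2 against LacZ and of 2.07 for Nrf2 against Nrf1. The remaining 8 were genes of the lists above.

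The summed markers of other cell types moved in the same direction as the antiviral genes. Some single markers had ratios to LacZ in the other direction, none of them called higher. These were *Csf1r* (log2 ratio 0.43 with Nrf1 and 0.08 with Nrf2), *Kdr* with Nrf1 (0.14) and *Tek* with Nrf2 (0.22). The 8 fibroblast markers, which include collagen genes, were called lower for 8 of 8 with Nrf1 and 6 of 8 with Nrf2. Their summed level was 12974 to 13846 CPM with LacZ, 3173 to 3415 with Nrf1 and 6410 to 6956 with Nrf2, which is 4.05-fold and 1.99-fold lower on average. *Col1a1*, the largest part of this sum, had 9827, 2464 and 5029 CPM with LacZ, Nrf1 and Nrf2. Against Nrf1, 6 of the 8 were called higher and 1 lower with Nrf2. *Tcf21* had 8.25 CPM with LacZ, 4.18 with Nrf1 and 2.19 with Nrf2. Of the 8 leukocyte and macrophage markers 7 were called lower in each comparison, with sums of 171 to 252 CPM with LacZ, 97.5 to 100.3 with Nrf1 and 89.9 to 101.3 with Nrf2. The ranges of the Nrf1 and Nrf2 libraries overlapped for this sum, while the antiviral genes differed between them by 3.65-fold to 6.97-fold. *Csf1r* and *Lyz2*, the largest parts of the sum, had 39.0 and 32.5 CPM with Nrf1 and 30.1 and 26.0 with Nrf2. Gene by gene, the median log2 ratio of these markers for Nrf2 against Nrf1 was 0.41, and 1 of the 8 was called higher. Among those with a mean of at least 100 the ratios ran from -0.36 (*Csf1r*) to 0.88 (*Cd68*). Endothelial markers (4 of 6 called lower in each comparison) had sums of 134 to 143, 89.6 to 101.0 and 86.0 to 98.8 CPM, and smooth muscle and pericyte markers (3 of 5 called lower with Nrf1, 1 of 5 with Nrf2) had sums of 607 to 662, 376 to 396 and 461 to 494 CPM. Of 9 cardiomyocyte markers measured, 3 were called lower and 1 higher with Nrf1 and none with Nrf2, with sums of 14721 to 16328, 11912 to 12032 and 14915 to 15205 CPM. No defining marker of these cell types was at 0 in a whole group. The sums of the marker lists fell by at most 4.05-fold, and that of the 10 antiviral genes by 18.7-fold with Nrf1. The part of the cell mixture in the change of the antiviral genes was not tested.

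**Figure D5:**
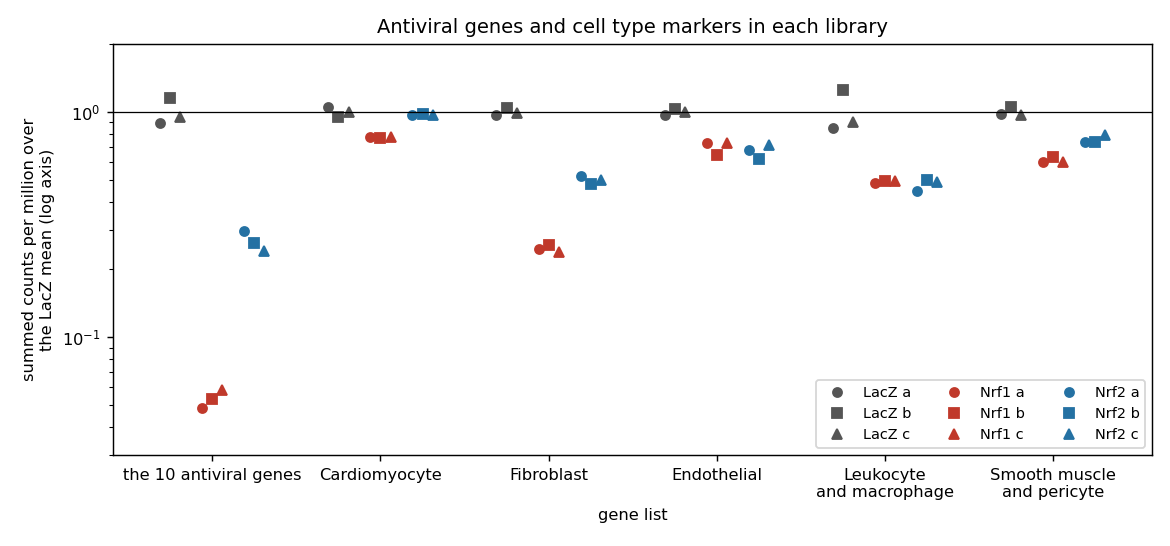
Summed CPM of the 10 antiviral genes and of 5 marker lists in each library, divided by the mean of the 3 LacZ libraries (log axis), with LacZ in grey, Nrf1 in red and Nrf2 in blue. The antiviral genes fall furthest, and the sum of the fibroblast markers, mostly *Col1a1*, falls in the same order of groups. Leukocyte and macrophage markers overlap between Nrf1 and Nrf2, and cardiomyocyte markers stay within 1.29-fold of the LacZ mean on average.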

How the data were processed

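Libraries were made from poly(A) RNA of 9 NRVM samples with a stranded kit and sequenced as single 75-base reads. The authors used HISAT2 2.0.4 for alignment to Rnor_6.0, SAMtools 0.1.18 to drop duplicates, featureCounts 1.6.0 to assign reads to genes, and ran tests in edgeR 3.20.5 (FastQC 0.11.4 for quality; versions per the submitters' processing notes). Removing duplicates by position can lower the counts of highly covered genes, which would make a fall from a high level look smaller; its effect was not tested. The deposited tables, 1 per pair of groups, hold each group's mean of normalized signal (read counts divided by a size factor set within the pair) and the authors' own fold changes and p-values, which were not used. There were 0 columns of single samples left unused. Spreadsheet dates had replaced 26 symbols in each of the tables with LacZ, and these rows (0.256% and 0.255% of the summed means) were left out.

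A group mean is the mean of 3 whole read counts, each divided by its library's size factor. Genes with single reads gave the size factors, and since each group is in 2 tables with different factors, the reads of its 3 libraries could be solved for 15094 of 15122 genes within 1.2 times the rounding error of the deposited means. Size factors recomputed from those reads differed from the ones in the means by at most 0.00787%. The solution was tested on simulated data. The recovered reads are derived from pooled columns and are not count files of the authors. Their totals are the depth, and no intervals from counting were added, since replicate spread is given. CPM is reads scaled to a library total of 1000000.

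Log2 ratios are those of the authors' means, with no pseudocount. Limma 3.58.1 (R 4.3.3; Python 3.11.15 elsewhere) was fitted with a mean-variance trend on log2(reads divided by size factor + 1), without covariates, over all solved genes of a pair, and p-values were adjusted over all of them. The added 1 shrinks the change of genes with few reads, but limma values also differ from the ratios of means where libraries are uneven. For *Rtp4* with Nrf1 the limma value was -4.47 and the log2 ratio of means -4.42. A gene was called at an adjusted p below 0.05 and a ratio of means past 1.5-fold, the fold criterion stated in the methods. Tests were checked on simulated counts. The 10 genes, the gene lists and the markers were chosen with earlier results of these data known. All 10 genes are named; from each list the genes with the lowest and highest ratio among those with a mean of at least 100 were named, and other list members in the text were chosen after their values were seen. Genes of the lists outside these tables were not analysed here. Results were recomputed with other fold criteria, pseudocounts, minimum means, 2 rescalings and leaving out each library. Limma voom, 1 fit of all 9 libraries and a filter of more than 1 CPM in at least 3 libraries were chosen after seeing the data.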

Additional observations from a re-analysis of the deposited data

How the results depend on the processing

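The count of antiviral genes called and the median log2 ratios kept their direction under every alternative run, and 118 of 121 alternative values of these stayed within 1.5 times the count or 1 SD between libraries. A 4-fold criterion left 3 of the 10 genes lower with Nrf2 than with LacZ. A pseudocount of 10 moved the median from -4.18 to -3.57 with Nrf1 and from 2.30 to 1.88 for Nrf2 against Nrf1, by the construction of the pseudocount, since the Nrf1 means are low. Leaving out 1 library at a time gave medians of -4.26 to -4.07 (Nrf1 against LacZ), -1.89 to -1.73 (Nrf2 against LacZ) and 2.15 to 2.38 (Nrf2 against Nrf1), with 10 of 10 called in the first and second of these and 9 to 10 in the last, the gene lost being *Oas2*. Over all these fits the highest limma adjusted p of a member was 0.0054 with Nrf1 (*Oas2*), 0.0054 with Nrf2 (*Mx1*) and, for Nrf2 against Nrf1, 0.055 (*Oas2*). Taking Nrf2 against Nrf1 as the difference of the ratios to LacZ gave a median of 2.31. A mean of at least 100 left 9, 9 and 7 of the 10 genes to test, all called, and cut the calls over all genes from 2205 to 1021 lower with Nrf1, from 1205 to 573 lower and 1270 to 662 higher with Nrf2, and from 592 to 366 lower and 1594 to 646 higher for Nrf2 against Nrf1, because fewer genes were tested. Rescaling to equal sums moved the share of lower calls with Nrf2 from 48.7% (1205 lower, 1270 higher) to 58.8% (1513 lower, 1059 higher). No paired analysis was possible because the recovered libraries carry no replicate number. Precision is limited by depth for *Oas1a*, *Oas2* and *Rtp4* in the Nrf1 group, where libraries held 3 to 22 reads of each.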
